A study of Mus musculus with 6 samples.

Results

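The genes described here are 9 RNA-binding or deadenylase-recruiting factors that shorten the life of cytokine mRNAs. They are Zfp36, Zfp36l1, Zfp36l2, Zc3h12a, Zc3h12c, Rc3h1, Rc3h2, Btg1 and Btg2. They were taken by name as a functional group, and each was read from the array row that names it alone. Each had exactly 1 such row, so no choice between rows was needed. They are 9 of 30102 genes named alone on a row. The cells were bone marrow-derived mast cells (BMMCs), which are grown from mouse marrow and serve as a model of tissue mast cells. Ionomycin, a calcium ionophore, makes mast cells degranulate, and the stated aim was to find genes that change after that early step.

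The activated cells were given 1 µg/mL ionomycin for 1 h in Tyrode's buffer, washed, and kept in culture medium for 3 h, which puts the RNA sample 4 h after the start. The naïve cells went through the buffer without ionomycin. Both groups were C57BL/6J cells matured for 6 weeks with interleukin 3 and supernatant containing stem cell factor. Each group had 3 arrays, numbered 1 to 3. No label says whether these came from separate mice or cultures, so p-values measure only the spread between the arrays, and the number of arrays limits the precision.

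As background, cytokine mRNAs are made in bursts and then removed quickly, and the 4 families here act at that removal step. ZFP36 (tristetraprolin) and its paralogs ZFP36L1 and ZFP36L2 bind AU-rich elements in mRNA tails and recruit the CCR4-NOT complex, which shortens the poly(A) tail. ZC3H12A (Regnase-1) and its relative ZC3H12C belong to a family of RNA endonucleases, and Regnase-1 cuts stem-loops of cytokine mRNAs. Roquin-1 (Rc3h1) and Roquin-2 (Rc3h2) bind such stem-loops and bring in deadenylases. BTG1 and BTG2 bind the catalytic subunits of CCR4-NOT, promote deadenylation and restrain cell proliferation.

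Of the 9 genes, Zfp36 alone passed the test, and its signal was 1.89-fold higher after ionomycin. Zc3h12c, Zfp36l1, Btg2 and Btg1 had every ionomycin array above every naïve array, at 1.44-fold to 1.77-fold, but missed the threshold. Such a separation was present in 18.9% of all genes. Zfp36l2, Zc3h12a, Rc3h1 and Rc3h2 had overlapping groups. The test was limma on the log2 signal over all 30102 genes, 2-sided, with Benjamini-Hochberg adjustment and a threshold of 0.05. By it 0.289% of all genes were higher and 0.0598% were lower, and with 9 genes a single call is not read as a property of the whole group. Before adjustment, 5 of the 9 had a p under 0.05 with higher signal and 0 with lower, against 10.2% and 5.44% of all genes.

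The promoters of the 3 genes with the lowest adjusted p are shown, of which Zfp36 alone passed the test. Each is the 250 bases before the RefSeq transcription start (mouse build GRCm38.p6), 5′ to 3′ on the gene's strand. The table used held promoters for 8 of the 9 genes. Capitals mark the motif matches named next, and GC box and NFAT core matches stay in lower case. In Zfp36 (chr7:28379229-28379478, minus strand) they are an EGR match and a CArG box, the serum response element core. In Zc3h12c (chr9:52168407-52168656, minus strand, 1 of its 2 starts) they are an NF-kB match. In Btg2 (chr1:134079156-134079405, minus strand) they are a cyclic AMP response element and an EGR match.
Zfp36: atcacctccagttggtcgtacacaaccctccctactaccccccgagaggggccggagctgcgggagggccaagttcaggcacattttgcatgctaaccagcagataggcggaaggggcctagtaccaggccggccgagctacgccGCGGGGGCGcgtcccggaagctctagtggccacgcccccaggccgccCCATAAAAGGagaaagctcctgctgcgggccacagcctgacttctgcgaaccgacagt
Zc3h12c: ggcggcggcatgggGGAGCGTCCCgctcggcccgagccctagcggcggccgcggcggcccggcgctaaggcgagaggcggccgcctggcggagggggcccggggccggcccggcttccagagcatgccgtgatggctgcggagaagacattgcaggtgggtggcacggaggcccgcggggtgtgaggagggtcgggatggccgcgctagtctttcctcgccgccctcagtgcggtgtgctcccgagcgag
Btg2: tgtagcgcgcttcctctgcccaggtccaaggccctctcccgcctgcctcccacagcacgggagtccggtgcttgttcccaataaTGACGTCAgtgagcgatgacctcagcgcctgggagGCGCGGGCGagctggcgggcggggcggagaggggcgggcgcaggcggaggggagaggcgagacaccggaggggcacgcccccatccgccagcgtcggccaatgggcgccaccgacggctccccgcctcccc

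The windows shown were rich in G and C, at 64.8% in Zfp36, 76.4% in Zc3h12c and 73.2% in Btg2, against a median of 52.4% over 32851 promoters. The window of the other Zc3h12c start held 48.0% and no NF-kB match. Searches for 10 motifs were made on both strands. The cyclic AMP response element was searched as TGACGTCA and was found in 1.55% of all promoters. The EGR motif was searched as GCGNGGGCG (4.7% of promoters), and the AP-1 motif was searched as TGANTCA (6.75%). The GC box was searched as GGGCGG (32.7% of promoters), and the TATA box was searched as TATAAA (12.4%). The heat shock element was searched as GAANNTTC (6.69% of promoters), and the E-box was searched as CACGTG (6.02%). The core of NFAT, a factor that calcium signalling activates, was searched as GGAAA (55.6% of promoters). The CArG box was searched as CCWWWWWWGG (1.47%) and NF-kB as GGGRNNYYCC (7.25%). In these patterns W is A or T, R is A or G, Y is C or T, and N is any base. In Zfp36 the EGR match lay at -105 to -97 from the start and the CArG box at -58 to -49, where its first base is also the last base of a GC box. NFAT core letters were not in the Zfp36 window. Among the 8 genes, EGR letters were in Zfp36 and Btg2, AP-1 letters in Zfp36l1 and Rc3h1, and TATA letters in Zfp36l1 and Btg1. A match is a description of letters, and no binding was measured here.

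Before the results, 2 facts about the arrays matter. Both arrays numbered 1 stood apart from the other 4. In a principal component analysis the first axis held 52.6% of the variance, and ionomycin 1 scored -21.2 and naïve 1 scored -48.0 on it, while the others scored 13.0 to 21.9. The second axis (31.9%) parted the 2 groups. Values without both arrays numbered 1 are given below. The median difference of all genes was 0.05 on the log2 scale, and centring each array on its own median moved it to -0.04. That centring changed the split of calls, with 86 genes higher and 110 lower against 87 higher and 18 lower as deposited.

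The mast cell identity could be checked on 9 of 10 markers, whose mean log2 signal was 12.64 to 12.71 on all arrays. Background, set as the 95th percentile of 1768 chemosensory receptor genes, was 6.03, and all 9 decay factors lay above it. Basophil markers, summarised over 4 genes, averaged 8.49 to 9.35 after ionomycin and 8.53 to 9.32 in naïve cells, and the array numbered 1 was the highest in both groups. The macrophage mean over 6 genes was 7.89 to 8.54 after ionomycin and 7.97 to 8.47 in naïve cells. Neutrophil markers averaged 5.94 to 6.06 after ionomycin and 5.93 to 6.05 in naïve cells. T cell markers averaged 5.97 to 6.03 after ionomycin and 5.79 to 5.94 in naïve cells, both near background. Dendritic cell markers averaged 5.69 to 5.80 after ionomycin and 5.54 to 5.58 in naïve cells, below background. Stromal markers averaged 7.03 to 7.13 after ionomycin and 6.85 to 6.99 in naïve cells. Megakaryocyte markers, over 3 genes, averaged 9.16 to 9.41 after ionomycin and 9.15 to 9.19 in naïve cells. B cell markers averaged 5.78 to 5.95 after ionomycin and 5.75 to 5.77 in naïve cells, below background. Of 4 erythroid markers only 1, Klf1, was measured, with a 6-array mean of 6.08. No marker in 10 lists passed the test on all arrays. The level mast cell mean held markers that differed one by one. Hdc, the histamine-forming enzyme, differed by 1.04 (limma adjusted p = 0.180, and 0.0119 without both arrays numbered 1). Ms4a2, the beta chain of the IgE receptor, differed by -0.62 (limma adjusted p = 0.163, and 0.0231 without both arrays numbered 1). The macrophage marker Cd68 passed lower without those arrays, at -0.51 (limma adjusted p = 0.0343). With the block of 2 levels Ms4a2 alone among the markers passed (limma adjusted p = 0.0102). These 3 were named after their values were seen. The part of other cells in the results was not tested, and in such bulk RNA fewer cells of a type and less RNA per cell cannot be told apart.

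Among the ZFP36 paralogs, Zfp36 separated the groups and Zfp36l2 had overlapping groups. Zfp36 had log2 signals of 8.74, 8.69 and 8.51 on the ionomycin arrays, against 7.57, 7.72 and 7.91 on the naïve arrays. The lowest ionomycin array lay above the highest naïve array. The mean was 8.65 ± 0.12 after ionomycin and 7.73 ± 0.17 in naïve cells (SD, n = 3 each), a difference of 0.92 ± 0.11 (SE) with a 95% interval of 0.65 to 1.18 and a limma adjusted p of 0.0417. With the replicate number as a block, the limma adjusted p for Zfp36 was 0.0702, above the threshold. That fit called 0.395% of all genes higher and 0.11% lower. Leaving out single arrays also ended the call, with limma adjusted p-values of 0.103, 0.252 and 0.140 without ionomycin 1, 2 and 3, and 0.210 and 0.0904 without naïve 2 and 3. Those fits called 1 to 35 of all 30102 genes higher and 0 to 1 lower, and the Zfp36 difference in them was 0.87 to 1.00. Without naïve 1 the limma adjusted p for Zfp36 was 0.0474, and without both arrays numbered 1 it was 0.0227 at a difference of 0.79.

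Zfp36l1 had 11.35, 10.83 and 10.85 after ionomycin, against 9.88, 10.56 and 10.59 in naïve cells. The groups did not overlap, but most of the gap came at number 1, where it was 1.46, against 0.27 and 0.26 at numbers 2 and 3. The mean difference was 0.67 ± 0.23 (95% interval 0.10 to 1.23, limma adjusted p = 0.278), without naïve 1 it was 0.44, and without both arrays numbered 1 it was 0.27 (limma adjusted p = 0.0898). Zfp36l2 had 11.45, 11.46 and 11.44 after ionomycin, against 11.46, 11.46 and 11.31 in naïve cells. Its groups overlapped, and the interval of the difference, -0.12 to 0.19, leaves out a change as large as that of Zfp36. The Zfp36l2 difference was 0.06 without both arrays numbered 1.

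In the Regnase family the difference was greater in size for Zc3h12c than for Zc3h12a. Zc3h12c had 9.62, 9.46 and 9.49 after ionomycin, against 8.41, 8.86 and 8.82 in naïve cells. Every ionomycin array was above every naïve array, at differences of 1.20, 0.60 and 0.66 by number. The difference was 0.82 ± 0.13 (95% interval 0.51 to 1.14, limma adjusted p = 0.0775, so not passed), and without both arrays numbered 1 it was 0.63 with a limma adjusted p of 0.0120. Zc3h12a, the Regnase-1 gene, had 7.86, 8.15 and 8.07 after ionomycin, against 7.69, 8.07 and 8.01 in naïve cells. The groups overlapped, each number showed a small positive gap, and the difference was 0.10 with an interval of -0.21 to 0.41 (limma adjusted p = 0.689). The Zc3h12a difference was 0.07 without both arrays numbered 1.

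The Roquin genes showed no difference past the test. Rc3h1 had 11.00, 10.54 and 10.52 after ionomycin, against 10.63, 10.37 and 10.39 in naïve cells. Its groups overlapped through naïve 1, and the difference was 0.22 (interval -0.14 to 0.58, limma adjusted p = 0.469). Without ionomycin 1 the Rc3h1 difference was 0.07 (limma adjusted p = 0.733), and without both arrays numbered 1 it was 0.15 (limma adjusted p = 0.223). Rc3h2 had 9.14, 9.17 and 9.10 after ionomycin, against 9.15, 9.28 and 9.37 in naïve cells. It was lower in the mean as deposited, where the other 8 were higher, although Zfp36l2 was also lower with centring or quantile normalization. Its difference was -0.13 (interval -0.31 to 0.05, limma adjusted p = 0.402), and the sign was the same at each of the 3 numbers. The Rc3h2 difference was -0.08 without naïve 3 and -0.07 with quantile normalization. It was -0.23 with centring (limma adjusted p = 0.166) and -0.19 without both arrays numbered 1 (limma adjusted p = 0.197). Of all genes, 16.8% were lower at all 3 numbers.

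The BTG genes had similar mean differences but unlike arrays. Btg1 had 9.37, 9.85 and 9.93 after ionomycin, against 9.25, 9.19 and 9.13 in naïve cells. Its gap was 0.12 at number 1 and 0.66 and 0.80 at numbers 2 and 3, the reverse of Zfp36l1. The difference was 0.53 ± 0.15 (limma adjusted p = 0.221), and without both arrays numbered 1 it was 0.73 with a limma adjusted p of 0.0106. Btg2 had 8.89, 8.89 and 8.72 after ionomycin, against 8.43, 8.11 and 8.35 in naïve cells. Its groups did not overlap at any array, and the difference was 0.54 ± 0.10 (interval 0.29 to 0.79, limma adjusted p = 0.112). The Btg2 difference was 0.58 without both arrays numbered 1, and it did not pass there (limma adjusted p = 0.0618). Among all genes, 18.9% had every ionomycin array above every naïve array and 7.31% had every one below, against 5 and 0 of the 9, and 35.8% were higher at all 3 numbers, as 7 of the 9 were. The median difference of the 9 was 0.53, against 0.05 over all genes, and without both arrays numbered 1 it was 0.27, against 0.04.

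**Figure D1:**
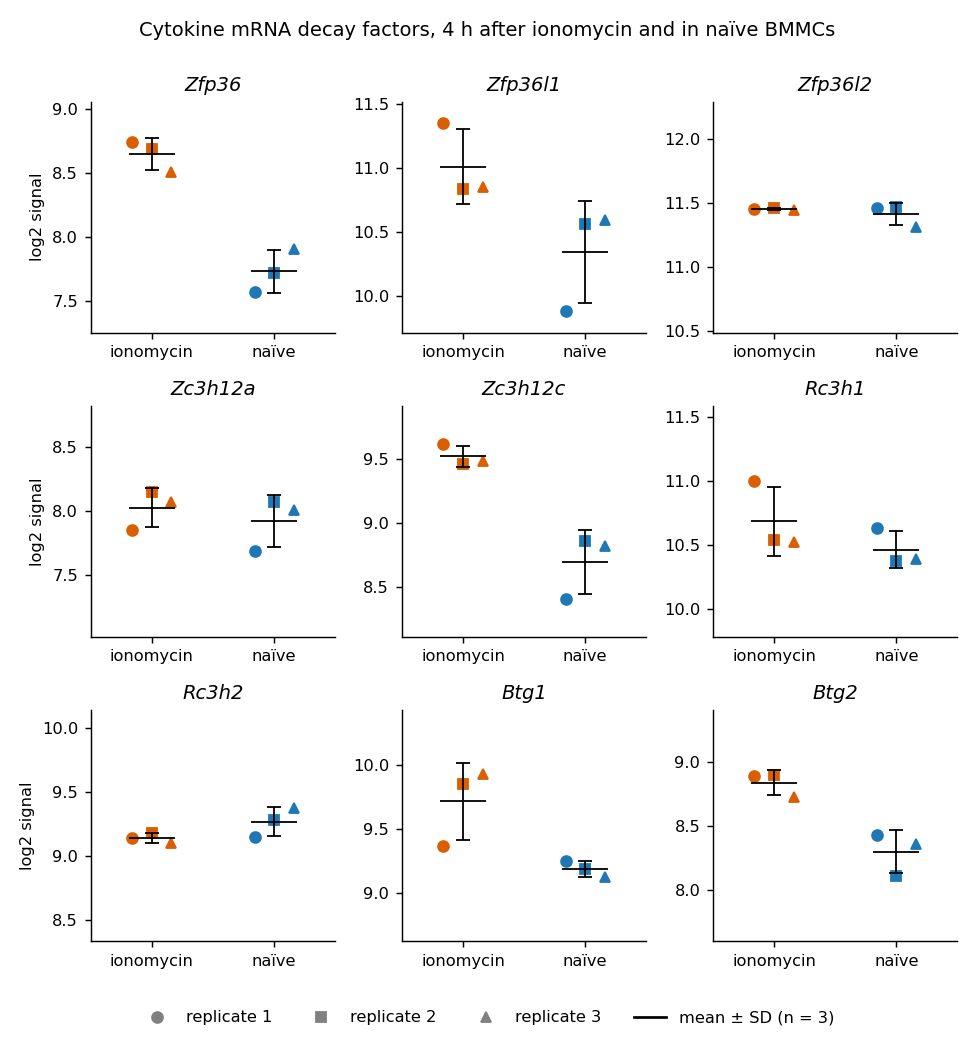
Log2 signal of each decay factor on the ionomycin and naïve arrays, with each panel spanning the same 1.8 log2 units, symbols giving the replicate number, and lines the mean ± SD (n = 3). Zfp36, Zfp36l1, Zc3h12c, Btg1 and Btg2 have groups that do not overlap, and the others do.

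**Figure D2:**
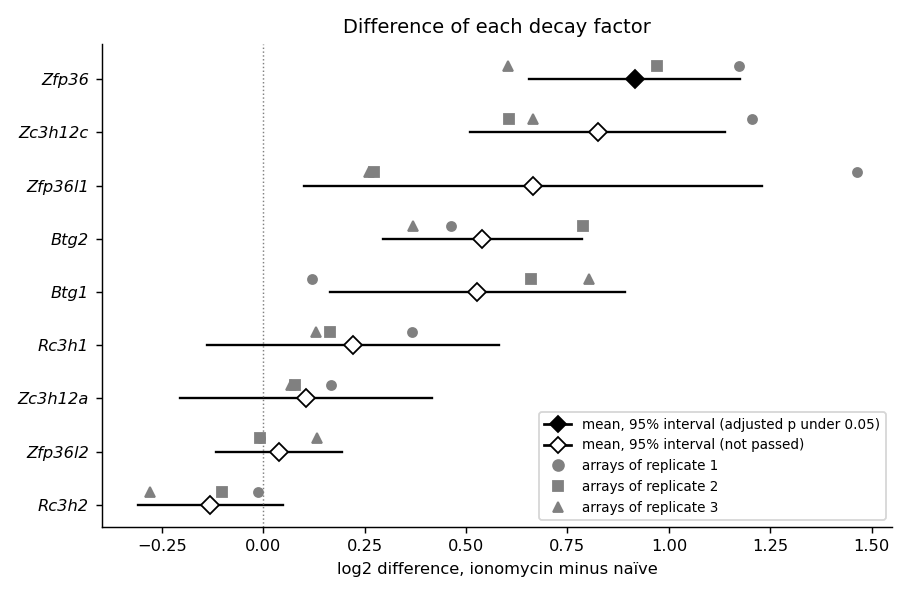
Log2 difference of ionomycin minus naïve for each decay factor, with the 95% interval from limma as a bar and the difference at each replicate number in grey. The filled diamond is Zfp36, which passed the test at 0.92, and open diamonds did not pass.

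The number of decay factors called differed between fits, among them fits that handled the arrays numbered 1 in other ways. Zfp36 lost its call with the replicate block (limma adjusted p = 0.0702), and without ionomycin 1, 2 or 3 or naïve 2 or 3. It kept the call in the fits given next. With a block of 2 levels, number 1 against numbers 2 and 3, Zfp36 (limma adjusted p = 0.0161), Zc3h12c (0.0257) and Btg2 (0.0331) passed. By that fit 2.25% of all genes were called higher and 2.47% lower. Without both arrays numbered 1, Zfp36, Zc3h12c and Btg1 passed, with 1.41% of genes higher and 1.43% lower. With array weights Zfp36, Zc3h12c, Btg1 and Btg2 passed, with 7.44% of genes higher and 5.49% lower. No member was called lower under any of the 15 alternatives.

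**Figure D3:**
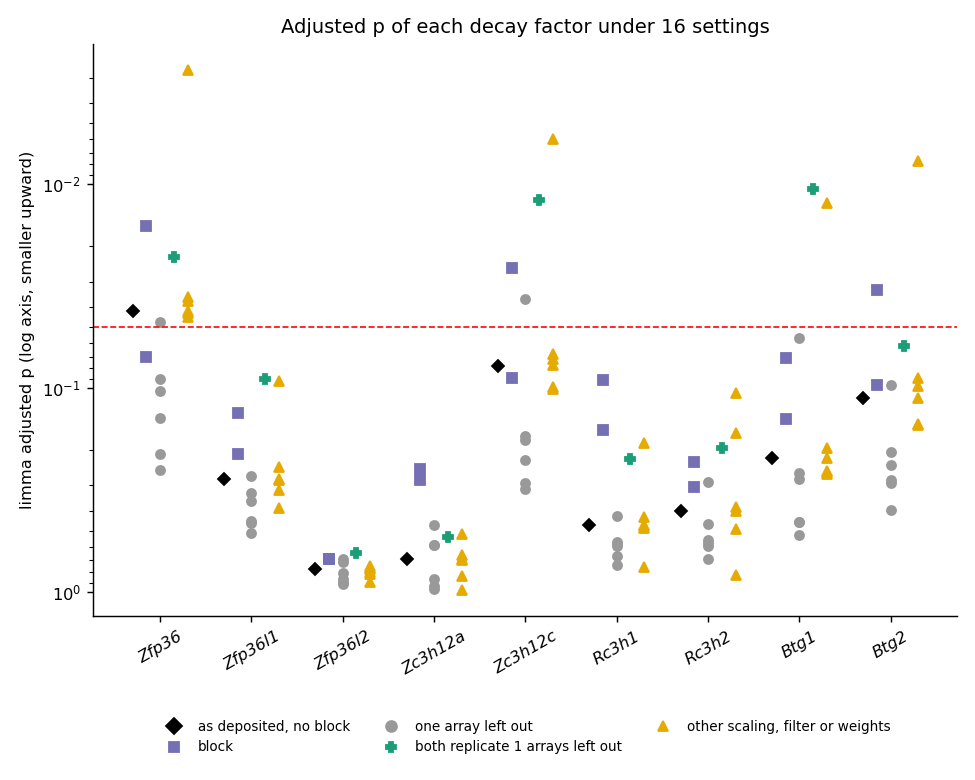
Limma adjusted p of each decay factor on a log axis, with smaller values higher, under the fit as deposited and 15 alternatives; the dashed line is 0.05. Zfp36l2, Zc3h12a, Rc3h1, Rc3h2 and Zfp36l1 stay below the line throughout, and the others cross it under some settings.

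Paralogs were compared by subtracting 1 gene's signal from the other's on each array, and testing the result between groups with an exact 2-sided permutation test, adjusted over 6 pairs. With 3 arrays against 3 the smallest p possible is 0.1, so no pair could pass. Zfp36 minus Zfp36l2 differed between groups by 0.88 (exact p = 0.1, adjusted 0.2), the greatest gap in the ZFP36 family. Zfp36l1 minus Zfp36l2 differed by 0.63 (exact p = 0.1, adjusted 0.2). Zc3h12a minus Zc3h12c differed by -0.72 (exact p = 0.1, adjusted 0.2), with the larger value in Zc3h12c. Zfp36 minus Zfp36l1 differed by 0.25 and Rc3h1 minus Rc3h2 by 0.35 (exact p = 0.3, adjusted 0.36, each). Btg2 minus Btg1 differed by 0.01 (exact p = 1).

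Relatives of these families that are not among the 9 were read from a list of 9 genes, all measured. Of these, 6 lay above background. None passed the test, and 2 were higher at an unadjusted p under 0.05, against 10.2% of all genes. Zfp36l3, named after its values were seen, was 1 of the 2 and lay below background, with a 6-array mean of 4.76. Btg3, a BTG relative named after its values were seen, had 8.95, 8.98 and 8.91 after ionomycin, against 7.43, 8.02 and 8.46 in naïve cells. Its groups did not overlap, and its difference of 0.98 ± 0.24 was above that of Zfp36 (limma adjusted p = 0.189). Another row names Btg3 together with a second gene, so which copy this row reads is uncertain. The median difference of the 9 relatives was 0.12, against 0.05 over all genes. Tob1, an antiproliferative relative of the BTG genes, differed by 0.06 (limma adjusted p = 0.729). Khnyn, a relative of the Regnases, had 9.33, 9.83 and 9.95 after ionomycin, against 9.68, 10.86 and 10.77 in naïve cells. Its difference was -0.74, but the groups overlapped (limma adjusted p = 0.343, 0.0367 with the block of 2 levels, and 0.00737 without both arrays numbered 1, at -0.93). Without naïve 1 alone its difference was -1.12.

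General mRNA decay machinery was mostly lower in the mean, by less without the arrays numbered 1. Of 51 genes in 3 lists for deadenylases, decapping with 5′ to 3′ decay, and the exosome, 46 were measured, and 42 were lower and 4 higher in the mean, against 45 and 1 with centring and 36 and 10 without both arrays numbered 1. None was called. Before adjustment, 5 had a p under 0.05 in the lower direction and 0 in the higher, against 5.44% and 10.2% of all genes. The median was -0.17 against 0.05 over all genes. With the block of 2 levels Dis3l, an exosome nuclease, and Parn, a deadenylase, both named afterwards, passed lower (limma adjusted p = 0.0247 and 0.0432). Without both arrays numbered 1 none passed, and the medians were -0.11 for deadenylases, -0.11 for decapping and -0.06 for the exosome, against 0.04 over all genes. The deadenylase list, which also held poly(A)-binding protein genes, had a median of -0.20 over 15 genes. Pabpc1, a poly(A)-binding protein gene, had almost equal means of 13.11 after ionomycin and 13.11 in naïve cells. Its difference was 0.0008, and 64.4% of all genes had a larger one. Cnot6l, a catalytic CCR4-NOT subunit, differed by -0.08 (limma adjusted p = 0.715). Decapping genes, over 17, had a median of -0.14, with Ddx6, a helicase of the decapping complex, at -0.04 and Patl1, a decapping scaffold, at -0.22 (limma adjusted p = 0.282). Exosome genes, over 14, had a median of -0.19, with Exosc10, a nuclease subunit, at -0.22 (limma adjusted p = 0.343) and Mtrex, its helicase partner, at -0.28 (limma adjusted p = 0.349; -0.13 without naïve 1). Dis3, another exosome nuclease named afterwards, had a gap of -0.70 at number 1 and gaps of -0.004 and -0.01 at numbers 2 and 3.

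Other cytokine mRNA binding proteins and their regulators gave 0 calls among 19 measured of 23, and a median of -0.05. Before adjustment, 4 of them passed 0.05 higher and 0 lower, against 10.2% and 5.44% of all genes. Mapkapk2, the kinase that phosphorylates and restrains ZFP36, had 11.66, 10.94 and 10.86 after ionomycin, against 10.47, 10.45 and 10.38 in naïve cells. The groups did not overlap, and the difference was 0.72 ± 0.21 (limma adjusted p = 0.231). The Mapkapk2 gap was 1.20 at number 1 and 0.49 and 0.48 at numbers 2 and 3. Without ionomycin 1 the difference was 0.47 (limma adjusted p = 0.111), and without both arrays numbered 1 it was 0.49 and passed (limma adjusted p = 0.0296). Ywhaz, a 14-3-3 gene whose protein family binds phosphorylated ZFP36, differed by -0.11 (limma adjusted p = 0.432).

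Reported targets of these factors were mostly higher in the mean, and how many passed the test differed between fits. Of 25 reported ZFP36 targets, 3 passed higher and 0 lower, against 0.289% and 0.0598% of all genes. Before adjustment, 15 were higher at a p under 0.05, against 10.2% of all genes. Their median was 0.92, the value of Zfp36 itself, and 0.64 without both arrays numbered 1. The 3 called were Ptgs2, Dusp1 and Zfp36, which is a target of its own product. With the replicate block 5 passed higher, against 0.395% of all genes. These were Il6, Ccl2, Ccl4, Ptgs2 and Dusp1, of which Ccl2 and Ccl4 are named after their values were seen. With the block of 2 levels 12 passed higher and 0 lower, against 2.25% and 2.47% of all genes. Without both arrays numbered 1 it was 12 higher and 1 lower (Plau), against 1.41% and 1.43% of all genes. Of 23 reported Regnase-1 and Roquin targets, 22 were measured, 1 passed higher (Ptgs2) and 0 lower, 14 were higher at an unadjusted p under 0.05, and the median was 0.56 (0.38 without both arrays numbered 1). Ier3, an early response gene, had a difference of 0.23 (limma adjusted p = 0.221). In the fit with the block, 4 of these passed, Il6, Il13, Nfkbid and Ptgs2, with Nfkbid likewise named afterwards. With the block of 2 levels, and likewise without both arrays numbered 1, 10 of the 22 passed higher and 0 lower. The shares of all genes in each fit are those given for the ZFP36 list. Leaving the decay factors out, 36 of 37 targets were higher in the mean as deposited, 33 with quantile normalization and 31 with centring. Plau, named afterwards, was lower at -0.45. By comparison, 64.4% of all genes had a difference above that of Pabpc1, which was 0.0008. Above background lay 22 of 25 genes in the ZFP36 list and 17 of 22 in the other list. The count of higher targets thus includes genes below background. The lists were compiled from general knowledge, share 8 genes, and do not test decay, which was not measured.

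Ptgs2, the gene of cyclooxygenase 2, had 12.73, 11.61 and 11.39 after ionomycin, against 9.24, 8.32 and 8.57 in naïve cells. The groups stood far apart, with a log2 difference of 3.20 ± 0.40 (limma adjusted p = 0.0485). Dusp1, a phosphatase that turns off MAP kinases, had 11.30, 10.91 and 10.83 after ionomycin, against 9.57, 8.98 and 9.16 in naïve cells, a difference of 1.78 ± 0.19 (limma adjusted p = 0.0316). Tnf, the tumor necrosis factor gene, had 12.00, 10.88 and 10.76 after ionomycin, against 10.60, 8.39 and 7.36 in naïve cells. Its groups did not overlap, but naïve arrays ranged widely, and the difference was 2.43 ± 0.83 (limma adjusted p = 0.273, and 0.0324 with the block of 2 levels). Without both arrays numbered 1 the Tnf difference was 2.95 (limma adjusted p = 0.0172). Il6 had 10.92, 9.64 and 9.52 after ionomycin, against 9.01, 8.31 and 7.93 in naïve cells, a difference of 1.61 ± 0.44 (limma adjusted p = 0.214, and 0.0332 with the block). Il13, a type 2 cytokine, had 13.39, 12.18 and 12.07 after ionomycin, against 10.76, 8.65 and 8.62 in naïve cells. The difference was 3.21 ± 0.66 (limma adjusted p = 0.132, and 0.0305 with the block). For each of Tnf, Il6 and Il13 the array numbered 1 was the highest in both groups, while for Zfp36 it was the highest after ionomycin and the lowest in naïve cells.

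**Figure D4:**
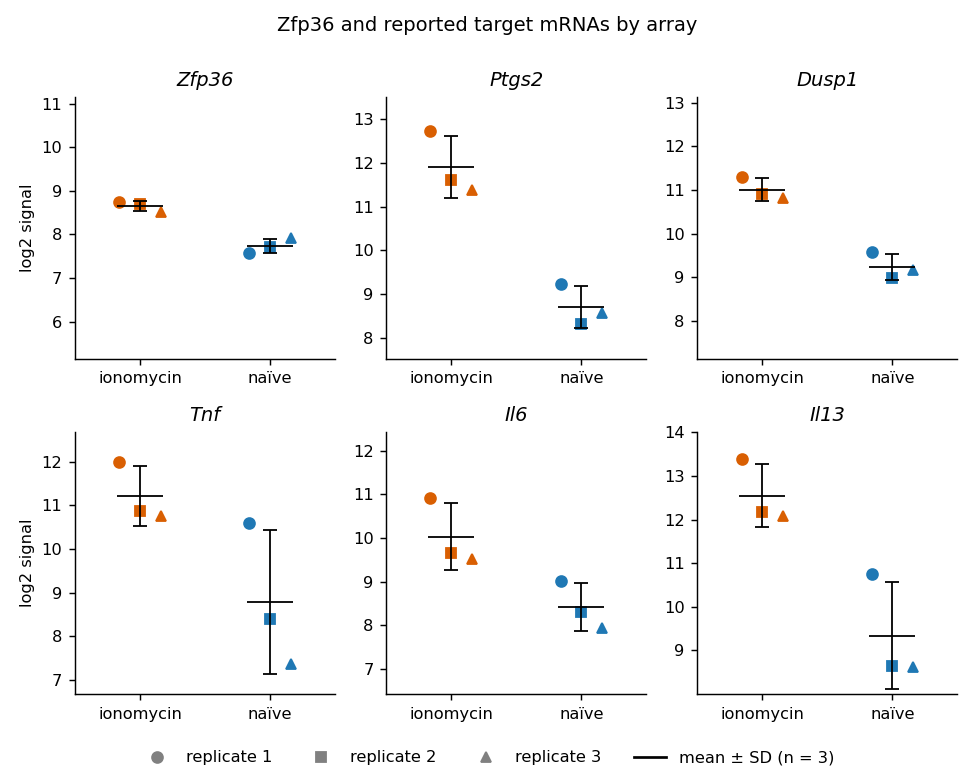
Log2 signal of Zfp36 and 5 reported targets on the ionomycin and naïve arrays, each panel spanning 6 log2 units, with symbols giving the replicate number and lines the mean ± SD (n = 3). The targets have replicate 1 highest in both groups, and Zfp36 has the smallest gap between the groups.

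**Figure D5:**
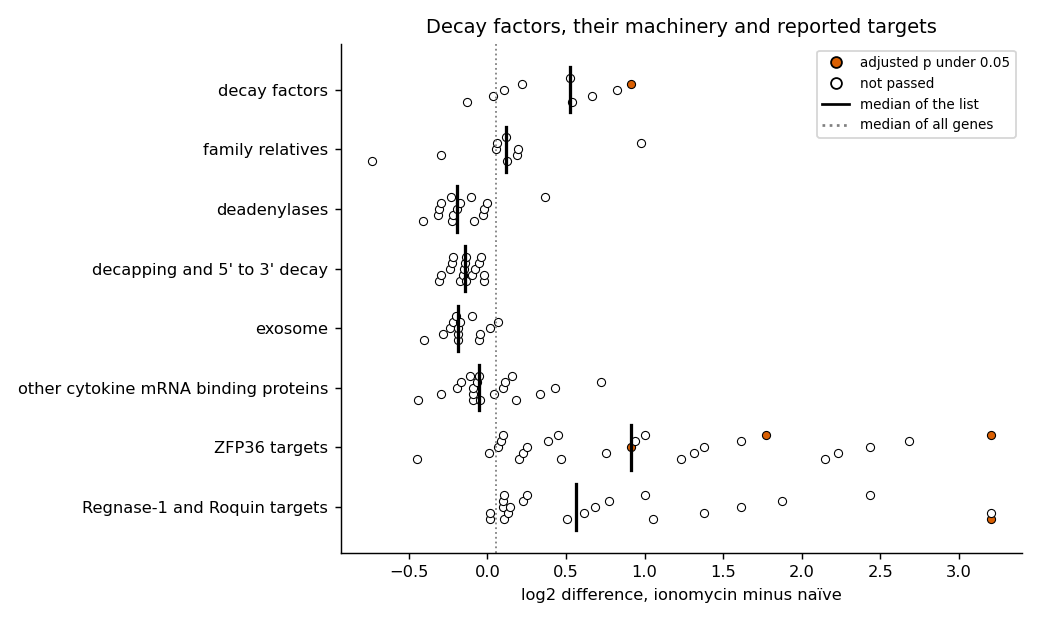
Log2 difference of ionomycin minus naïve for every gene of each list, with filled points for an adjusted p under 0.05, bars for list medians and a dotted line for the median of all genes, 0.05. The machinery lists lie mostly left of that line and the target lists right of it.

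The genes whose pattern over the 6 arrays was most like that of Zfp36 were found by the root mean square distance between profiles centred on their own mean, among 13687 genes. These were the genes above background other than predicted genes (Gm and Rik names), small RNAs and segments of immunoglobulins or T cell receptors. In order they were Gzmg (0.0239), Dennd3 (0.0650), Osgin2 (0.0800), Havcr2 (0.0874) and Gpr174 (0.0889). Their differences were 0.92, 0.89, 0.80, 0.94 and 0.92, against 0.92 for Zfp36. They were chosen for their likeness to Zfp36, so these values are a description of the 6 arrays, with no test.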

How the data were processed

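Total RNA of 6 samples, labelled with an Affymetrix whole-transcript kit per the labels' protocols, was hybridised to 1 array each. The deposited table holds 65770 rows of log2 signal, a scale read from its range of 3.01 to 14.6. The submitters' processing notes name the oligo package; how background was corrected and arrays were normalized is not stated there. Array medians were 5.96, 6.03 and 6.03 after ionomycin and 5.88, 5.95 and 5.99 in naïve cells.

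The platform annotation named 1 gene for 30439 rows, several for 2146 and none for 33185. Symbols were updated through Entrez IDs for 827 rows with RefSeq genes (GRCm38.p6). For 252 genes with several rows the brightest was kept, leaving 30102 genes. limma 3.58.1 in R 4.3.3 (lmFit and eBayes, no covariates) compared the groups, with Benjamini-Hochberg adjustment over all genes and a threshold of 0.05. It was tried on simulated data with independent noise on each array, which does not cover deviations that arrays share. The 15 alternatives were blocks, scalings, a filter on dim genes, the variance model, weights for arrays, averaging rows per gene, and arrays left out. Same-numbered arrays deviated together (r = 0.711, 0.476 and 0.469), with the numbers from the sample titles, although numbers 2 and 3 crossed gave 0.481 and 0.524.

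Named genes were the 9 decay factors, the called or brightest genes of each list, Tnf, Il6, Il13 and Ptgs2, and the 5 patterns nearest to Zfp36. The members and lists were chosen with earlier results of these data known.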

Additional observations from a re-analysis of the deposited data

How the results depend on the processing

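The count of genes called was the most dependent result. Against 87 higher and 18 lower as deposited, the replicate block gave 119 and 33, the block of 2 levels 677 and 744, array weights 2240 and 1654, and leaving out both arrays numbered 1 gave 423 and 429. Centring gave 86 and 110, quantile normalization 73 and 25, and the trend and robust variance model 78 and 9. Leaving out single arrays gave 1 to 95 higher and 0 to 55 lower, where 1069 to 2269 genes were lower at an unadjusted p under 0.05. Decay factors called higher numbered 1 as deposited, 0 with the block (5 at an unadjusted p under 0.05), 3 with the block of 2 levels, 4 with array weights, 3 without both arrays numbered 1 and 0 to 2 without single arrays. Among the named genes, pairing by the block ended the calls of Zfp36 (limma adjusted p = 0.0702) and of Gzmg, which was chosen for its likeness to Zfp36 (0.0694), brought in Il6 (0.0332) and Il13 (0.0305), and changed no other call. Of 450 alternative values of named genes, 363 kept direction and side of the threshold, 32 lost and 35 gained significance, and 20 changed sign, all of them small. Zfp36l2 turned to -0.040 with quantile normalization and -0.056 with centring, and ranged from -0.012 to 0.065 without single arrays. Zc3h12a ranged from -0.012 to 0.19 without single arrays. Tob1 was -0.039 with centring, -0.030 with array weights and -0.034 without both arrays numbered 1, and -0.011 to 0.097 without single arrays. Pabpc1 was -0.031, -0.094 and -0.0069 with quantile normalization, centring and weights, -0.012 without both arrays numbered 1, and -0.019 to 0.014 without single arrays. Cnot6l was 0.019 with weights and 0.018 without both arrays numbered 1, and -0.15 to 0.038 without single arrays. Ddx6 was 0.018 with weights and -0.11 to 0.047 without single arrays. Btg2 minus Btg1 was -0.0086 with quantile normalization, -0.15 without both arrays numbered 1, and -0.19 to 0.17 without single arrays. The cause was not tested. With 3 arrays a group, small differences cannot be told from 0.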
